A study of Mus musculus with 18 samples.

Results

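Axon guidance ligands and receptors were defined by name. The symbols of the count table were matched to the naming patterns of 9 families, and no measured value entered the choice. The match gave 69 genes of 23420 symbols: 20 semaphorins (Sema), 9 plexins (Plxn), 2 neuropilins (Nrp), 8 ephrins (Efn), 14 Eph receptors, 4 netrins (Ntn), 5 genes of Dcc and the Unc5 receptors, 3 slits and 4 Robos. All 69 were found in RefSeq. The libraries came from the brain of mice of the genotype Camk2a-Cre-Rpl22HA, which the control mice carried too. In these mice the ribosomal protein Rpl22 bears an HA tag in cells that express Cre from the Camk2a promoter, which is active in forebrain excitatory neurons. Control mice had no tumor. Tumor mice had glioma cells implanted in the cortex, and the third condition was the same tumor in mice given AZD8055 (AZD), an inhibitor of the mTOR kinase. From each condition, total RNA (input) and polysomal RNA pulled down through the tag (IP) were sequenced, with 3 libraries in each of 6 groups and 18 in all. The labels give no age, dose or time, and they do not say whether a library number is 1 mouse, a pool or a repeat, so a p-value here reflects how far these libraries scatter, which may be technical scatter alone.

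Guidance cues steer growing axons by attraction or repulsion through receptors on the growth cone. Semaphorins bind plexins, and most of the secreted class 3 members need a neuropilin as co-receptor. Ephrins stay on the cell surface and signal to Eph receptor kinases on contact, and the ephrin can signal back into its own cell. Netrins attract through Dcc and repel through Unc5 receptors, whereas slits repel through Robos. In the adult cortex many of these genes remain on in neurons, where they act at synapses, and several are known from the oligodendrocyte lineage and from blood vessels.

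Library totals lay between 13561511 and 34178417 counts, of which the 69 genes took 0.351% to 0.427%. Values are CPM (counts scaled to a common library total) after TMM scaling, without division by gene length, so levels are compared between libraries and not between genes. The names of the libraries fall into 3 sets: control and tumor input, control and tumor IP, and all AZD libraries. Tumor is therefore compared with control, and AZD IP with AZD input, inside a set. The fits of tumor against control also held the AZD libraries of that fraction, which come from another set and entered the filter, the scaling and the estimate of scatter. For AZD against tumor, and for IP against input in control and in tumor, the set cannot be told apart from the difference tested. Tumor replicate 1 stood apart in both fractions (chi-square per degree of freedom against the other tumor libraries of its fraction 37.4 to 68.7, and 13.2 to 14.3 between those others). AZD replicate 1 did so less (22 to 29.2, and 9.72 to 10.3).

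The IP fraction was checked against marker lists of 10 genes each, summed in CPM. Excitatory neuron markers summed to 2753 to 3001 CPM in the inputs of controls and 3377 to 4115 in their IPs, and to 1388 to 1819.6 in AZD input and 3702 to 4458 in AZD IP. Astrocyte markers summed to 7489.8 to 8739.7 CPM in the inputs of controls and 7304 to 7862 in their IPs, but to 4587 to 6124 in AZD input and 1708 to 2330.4 in AZD IP. Thus control and tumor IP held astrocyte transcripts at levels close to their inputs (4267 to 5891 and 3676 to 5305 CPM in tumor input and IP), and AZD IP did not. Markers of oligodendrocyte precursors and glioma summed to 580.3 to 662 CPM in the inputs of controls and 450.2 to 586 in their IPs, 6129 to 6866 and 4912 to 5364 in inputs and IPs of tumor mice, and 2889 to 4118 and 527 to 714 in those of AZD mice. No listed marker was at 0 counts in a whole group.

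Promoter sequences are shown for the genes on which the tumor and AZD results below turn. They are the 3 largest rises and the 3 largest falls in tumor IP among genes that changed alike in tumor input, changed the opposite way between AZD IP and AZD input, and had a single RefSeq promoter entry. Each runs from 150 bases before to 30 bases after the RefSeq start (GRCm38.p6), 5′ to 3′ on the strand of the gene. Capitals mark the GC box GGGCGG and the E-box CANNTG on either strand. The genes that rose in tumor were a secreted semaphorin, a class B plexin and a netrin.
Sema3d, chr5:12383016-12383195, plus strand: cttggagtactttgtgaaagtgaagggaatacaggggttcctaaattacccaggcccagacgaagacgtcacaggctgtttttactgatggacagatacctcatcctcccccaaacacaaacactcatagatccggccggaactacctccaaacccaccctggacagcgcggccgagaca
Plxnb3, chrX:73756953-73757132, plus strand: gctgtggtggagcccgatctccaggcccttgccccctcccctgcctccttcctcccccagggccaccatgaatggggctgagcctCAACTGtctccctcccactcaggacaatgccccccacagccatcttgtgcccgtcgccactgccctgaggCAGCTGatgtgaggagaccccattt
Ntn4, chr10:93640899-93641078, plus strand: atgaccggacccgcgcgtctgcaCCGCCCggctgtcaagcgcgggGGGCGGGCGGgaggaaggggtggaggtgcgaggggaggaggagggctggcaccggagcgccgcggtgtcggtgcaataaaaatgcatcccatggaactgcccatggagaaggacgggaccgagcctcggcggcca
The genes that fell were an ephrin, an Eph receptor and a slit.
Efna5, chr17:62881288-62881467, minus strand: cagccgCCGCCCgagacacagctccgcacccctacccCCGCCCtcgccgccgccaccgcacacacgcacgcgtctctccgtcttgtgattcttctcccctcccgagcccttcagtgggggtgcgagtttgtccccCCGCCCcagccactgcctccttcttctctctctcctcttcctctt
Epha10, chr4:124881635-124881814, plus strand: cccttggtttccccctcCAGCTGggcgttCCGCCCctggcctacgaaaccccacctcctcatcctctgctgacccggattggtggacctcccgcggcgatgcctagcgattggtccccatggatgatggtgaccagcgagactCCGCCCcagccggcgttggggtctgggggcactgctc
Slit3, chr11:35121306-35121485, plus strand: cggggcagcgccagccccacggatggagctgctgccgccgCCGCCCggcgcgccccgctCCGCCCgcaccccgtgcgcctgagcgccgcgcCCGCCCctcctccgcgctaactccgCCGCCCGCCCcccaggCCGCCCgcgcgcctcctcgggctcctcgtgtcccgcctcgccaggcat
All 3 promoters of genes that fell held a GC box (3 in Efna5, 2 in Epha10 and 6 in Slit3, overlaps counted), as did Ntn4 with 3, whereas Sema3d and Plxnb3 held 0. The E-box was found 2 times in Plxnb3 and 1 time in Epha10. Over all 32851 RefSeq windows of this length, 31% held the GC box, and of the 75 windows of guidance genes 52 did (69.3%). The E-box was in 54.1% of all windows and 38.7% of those of guidance genes, and the TATA box TATAAA in 8.37% and 2.67%. These are counts of letters in windows, and 59 of the 69 genes had an entry.

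The first comparison asked which guidance genes differ between tumor-bearing and control brain, in whole tissue and in the IP. Sema3d rose 21.4-fold in input and 20.6-fold in IP, more than any other of the genes tested here. Netrin-1 and netrin-4, the plexin Plxnb3 and the transmembrane semaphorins Sema6a and Sema5b rose between 2.26-fold (Sema5b in IP) and 4.37-fold (Ntn1 in input). Efna5, Epha10, Epha8, Slit3 and Unc5d fell by a factor of 1.999 (Unc5d in IP) to 2.89 (Epha8 in input). Of the 68 genes tested, 16 exceeded control and 32 lay under it in IP (edgeR quasi-likelihood test, adjusted p under 0.05), or 23.5% and 47.1%. Over all 15734 genes tested, 26.1% were higher and 20.9% lower. In input 14 were higher and 34 lower (20.6% and 50%), against 24.5% and 23.6% of 15511 genes. The rising share was thus near the background in both fractions, and the falling share lay above it. The median log2 fold of the guidance genes was -0.35 in IP and -0.52 in input, and that of all genes 0.020 and -0.014. Without tumor replicate 1, which stood apart, 15 were higher and 27 lower in IP, and 14 and 30 in input. Where a pair of values is given for a gene in tumor, input comes first and IP second, and each log2 fold stands with its standard error where one is given.

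Input and IP gave much the same calls. Of the genes higher in tumor input, 14 were also higher in tumor IP (100% of the first list and 87.5% of the second), and 29 were lower in both (85.3% and 90.6%). Over all genes the shares were 88% and 81.4% for higher, and 73.7% and 82% for lower. Efna1 and Ntn3 were called higher in IP alone, with adjusted p values of 0.0493 and 0.0354, and each kept the call in 1 of 6 fits that left out 1 library. No guidance gene passed a test of whether its change from control to tumor differed between IP and input: the contrast called 0 of 68 in edgeR and 0 in DESeq2, with 1 at an unadjusted p under 0.05. Over all 16016 genes it called 0.05% higher and 0.0187% lower. Efna4 had 0 to 10 counts per library and passed the filter on low counts in no comparison.

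Markers of other cells moved with these counts. All 10 markers of oligodendrocyte precursors and glioma were higher in tumor in both fractions (median log2 fold 3.30 in input and 3.28 in IP). Excitatory neuron markers were lower, 10 of 10 in input and 9 of 10 in IP, with a summed level of 1016 to 1826 CPM in the inputs of tumor mice and 1627 to 2082 in their IPs. Of 10 endothelial and pericyte markers, 2 were lower in input and 0 were called in IP. Inhibitory neuron markers were lower in 8 of 10 in input and 7 in IP (medians -0.97 and -1.01), astrocyte markers in 7 and 6 (-0.63 and -0.66), and oligodendrocyte markers in 8 and 7 (-1.06 and -1.05). All 10 markers of proliferating cells were higher in both fractions (5.02 and 4.98). Their part in the guidance results was not tested. In bulk RNA, fewer cells of a type and less RNA per cell cannot be told apart.

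**Figure D1:**
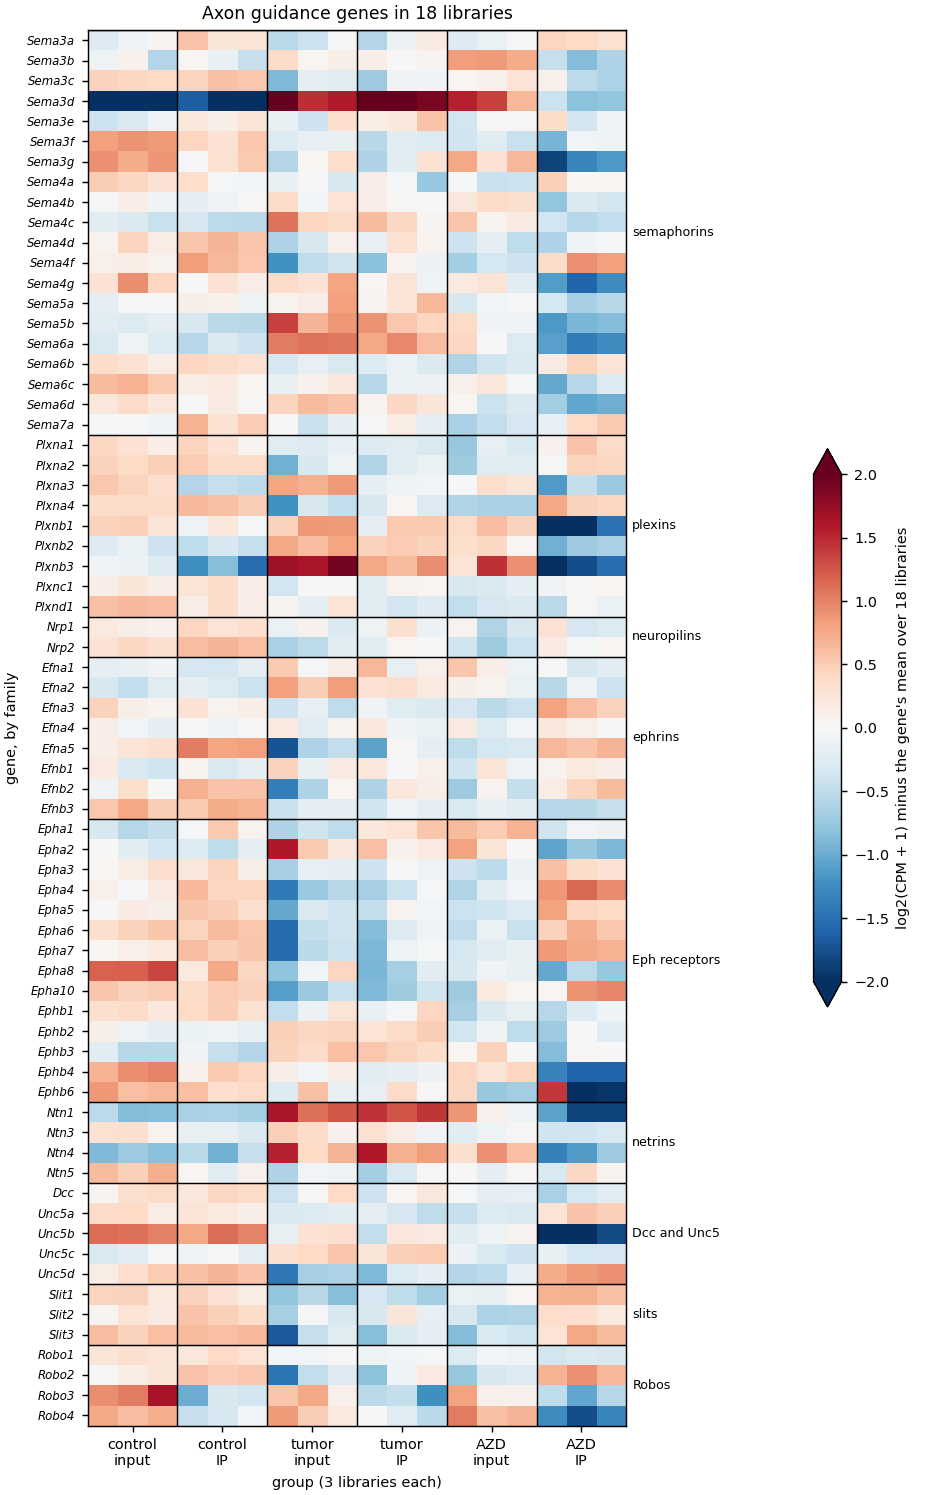
Level of each of the 69 guidance genes (rows, by family) in the 18 libraries (columns, 3 per group), as log2(CPM + 1) minus the gene's mean over all libraries, with colors held at -2 and 2. Sema3d, Ntn1, Ntn4, Plxnb3 and Sema6a lie above their mean (red) in all 6 tumor columns, faintest for Ntn4 in tumor input replicate 2. Most Eph-A receptors, slits and Robo2 are mainly blue in tumor input and IP and red in AZD IP. Exceptions include Robo2 in tumor IP replicate 3 and Slit2 in tumor IP replicate 2, which lie above their means.

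The next question was how AZD8055 treatment of tumor mice altered these genes. In IP, the receptors Epha4, Epha10, Unc5d and Robo2 and the ligands Slit1, Slit3 and Efna5 were higher with AZD than in untreated tumor, by 1.89-fold (Robo2) to 2.6-fold (Epha10). Ntn1, Sema3d, Epha2 and Plxnb3 were lower by a factor of 7.27 (Plxnb3) to 8.54 (Ntn1). In all, 20 genes were higher and 30 lower with AZD in IP, against 25.1% and 33.5% of 15734 genes (guidance genes 29.4% and 44.1%). Without tumor IP replicate 1 these counts were 18 and 31, and without AZD IP replicate 1 20 and 30. In input far fewer passed: 3 were higher (Epha1, Slit1 and Sema3c) and 11 lower, against 7.89% and 9.17% of 15511 genes (guidance genes 4.41% and 16.2%). The medians of guidance genes were -0.29 in IP and -0.10 in input, and those of all genes -0.094 and 0.0061. The input count fell to 8 without AZD input replicate 2 and to 7 without AZD input replicate 3. The 11 lower in AZD input were Sema6a, Sema5b, Sema6d, Ntn1, Efna2, Ephb2, Unc5c, Plxna3, Plxnb2, Plxnb3 and Plxnd1, and their log2 folds ran from -0.98 (Ntn1) to -0.41 (Plxnd1). When 1 library was left out, the calls of Plxnb2, Plxnb3 and Plxnd1 held in 1 of 6, 2 of 6 and 2 of 6 fits. Those of Sema3c, Ntn1, Sema5b and Efna2 held in 4 of 6 each, and the single fit of all 18 libraries lost Sema3c. These comparisons share the tumor libraries with those of tumor against control, so each is given with its own values.

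With AZD in IP, all 10 excitatory neuron markers were higher than in tumor IP (median log2 fold 1.16). All 10 markers were lower for astrocytes (-2.09), oligodendrocytes (-2.06), oligodendrocyte precursors and glioma (-3.07), microglia (-2.27), endothelial cells with pericytes (-2.29) and proliferating cells (-2.38). Inhibitory neuron markers were lower in 8 of 10 against tumor IP (-1.34) and in 10 of 10 in AZD IP against AZD input (-1.80), where excitatory neuron markers were higher in 10 of 10 (1.37). In input, the markers of oligodendrocyte precursors and glioma were lower, 10 of 10 (-1.14), and 0 of 10 excitatory neuron markers passed (2 at an unadjusted p under 0.05). Their part in the guidance results was not tested.

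The third question was which guidance transcripts the IP held more or less of than the input. In AZD brain, Epha4, Sema4f, Unc5d, Plxna4, Robo2, Slit3, Efna3 and Efna5 were 2.13-fold (Efna5) to 2.46-fold (Epha4) higher in IP. Epha2, Sema3g, Plxnb3, Robo4, Ephb4, Plxnb1 and Unc5b were lower by a factor of 5.02 (Unc5b) to 8.33 (Epha2). There, 25 genes were higher and 25 lower in IP, against 29% and 32.5% of 15040 genes (guidance genes 36.8% each way). With plain library totals in place of TMM the split was 20 and 32, and the median of all genes moved by -0.28, so these folds are relative to the scaling. With TMM and without AZD IP replicate 1 the split was 26 and 25, and without AZD input replicate 1 23 and 25. The median log2 fold of the guidance genes was 0.072, and that of all genes -0.021. In control brain 15 were higher and 16 lower, against 17.7% and 18.8% of 14958 genes (guidance genes 22.1% and 23.5%). A single fit of all 18 libraries called 2 higher and 8 lower. With plain totals these were 11 and 20. In tumor brain 1 gene was higher and 2 lower, against 2.11% and 2.98% of 15245 genes (guidance genes 1.47% and 2.94%). These tests of IP against input did not pair the libraries. Blocking on the replicate number, by which IP and input paired, called 33 in tumor (17 higher and 16 lower). Some of the genes given by library below were called by the block and not by the reported test. Of these, Robo4, Epha2, Epha8, Plxnb1, Sema5b and Sema6a were lower in tumor IP than in tumor input (log2 folds -0.90 to -0.27). Slit2, Slit3, Sema3d, Epha5, Nrp2, Unc5d, Plxna4, Robo2, Epha4, Efna5 and Efnb2 were higher (0.27 to 0.57). Without tumor IP replicate 2 the unblocked count was 1.

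Plxna3 and Plxnb3 were lower in IP than in input in all 3 conditions. Plxna3, a class A plexin, had log2 folds of -1.03 ± 0.094 in control, -0.92 ± 0.094 in tumor and -0.98 ± 0.19 with AZD. Plxnb3 had -1.11 ± 0.15, -0.98 ± 0.12 and -2.98 ± 0.40. The IP gap of 27 genes differed between AZD and tumor brain, 10 upward and 17 downward, against 12.3% and 20.8% of 16016 genes (guidance genes 14.7% and 25%). With the replicate block this count was 44 (22 and 22), with Epha5, Efna5, Plxna2, Slit2, Robo2, Epha10 and Slit3 upward and Sema5a and Efnb3 downward added among those genes, and with plain totals 25 (4 and 21). The upward count varied with single libraries. It was 20 without tumor input replicate 1, and 5 without tumor input replicate 3 or without AZD IP replicate 2. It was 6 without tumor input replicate 2, tumor IP replicate 1 or 3, or AZD input replicate 2. The upward calls of Plxna1, Sema6b, Efna3 and Unc5a held in 12 of 12 such fits. Those of Sema7a, Epha4, Unc5d, Plxnd1, Plxna4 and Slit1 held in 4 (Sema7a and Epha4) to 9 (Slit1). The downward count ran from 14 to 18 over all fits that left out 1 library.

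**Figure D2:**
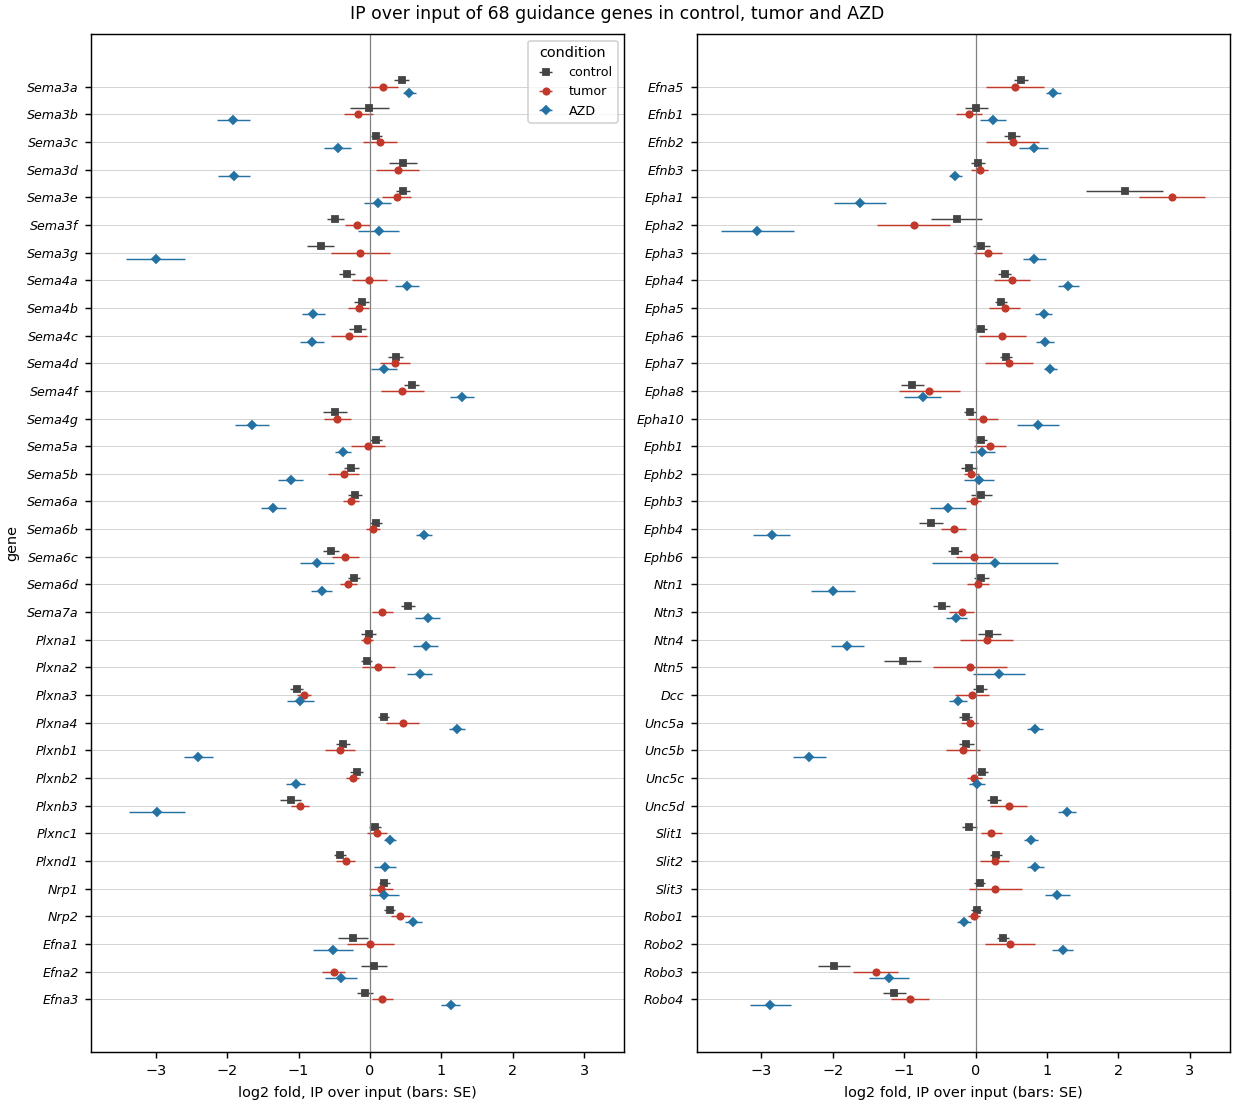
Log2 fold of IP over input (x axis) for the 68 guidance genes tested (y axis), in control (grey squares), tumor (red circles) and AZD (blue diamonds), 3 libraries of each fraction, with bars of 1 standard error. Control and tumor points lie near 0 for most genes, but reach from -1.98 (Robo3) to 2.09 (Epha1) in control and from -1.40 (Robo3) to 2.75 (Epha1) in tumor. AZD points spread from -3.06 (Epha2) to 1.30 (Epha4).

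Class 3 semaphorins are secreted repellents. Of the 7, 1 rose and 3 fell in tumor in each fraction. Sema3d, the one that rose, stood at 22.9, 16.8 and 13.7 CPM in the input of controls and 32.4, 21.5 and 20.04 in their IP. For Sema3d, tumor libraries held 548, 290.3 and 313 CPM in input and 646, 468 and 383 in IP, and AZD libraries 304, 268 and 165 in input and 77, 58.4 and 59.4 in IP. Every tumor library lay above every control library of its fraction, and every AZD IP library lay between the control and the tumor IP libraries. The log2 fold in tumor was 4.42 ± 0.34 in input (adjusted p = 6.66e-06) and 4.36 ± 0.25 in IP (adjusted p = 5.02e-07). With AZD the log2 fold against tumor was -2.97 ± 0.23 in IP (adjusted p = 2.79e-06) and -0.61 ± 0.29 in input, where the ranges overlapped (adjusted p = 0.166). Sema3d was not called between IP and input in control or tumor (log2 folds 0.46 and 0.39), and blocking on the replicate number called both (log2 folds 0.45 ± 0.086 and 0.41 ± 0.088, adjusted p = 0.000969 and 0.00073). With AZD, Sema3d was lower in IP than in input (log2 fold -1.90 ± 0.22, adjusted p = 0.000189).

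Sema3g and Sema3b followed another pattern. Sema3g, known from endothelial cells, stood at 6.95, 6.05 and 6.76 CPM in the input of controls and 3.13, 4.21 and 5.04 in their IP. For Sema3g, tumor libraries held 1.82, 3.36 and 4.36 CPM in input and 1.74, 2.63 and 4.15 in IP, and AZD libraries 6.2, 4.15 and 5.68 in input and 0.164, 0.701 and 0.908 in IP. Its AZD IP libraries were all below 1 CPM and below every other library. Sema3g fell in tumor input (log2 fold -1.08 ± 0.29, adjusted p = 0.0118), missed the threshold in tumor IP (log2 fold -0.49 ± 0.39, adjusted p = 0.325), and was lower in AZD IP than in AZD input (log2 fold -3.01 ± 0.42, adjusted p = 0.000431). Sema3b held 2.62 ± 0.822 CPM in control input and 3.66 ± 0.582 in tumor input (mean ± SD, n = 3), with overlapping libraries. In AZD brain it held 6.29, 6.38 and 5.84 CPM in input and 1.96, 1.25 and 1.68 in IP, a log2 fold of -1.92 ± 0.23 (adjusted p = 0.000228). Of the other secreted members, Sema3c and Sema3f fell in both fractions (log2 folds in input -0.86 and -1.19), and Sema3a fell in IP (log2 fold -0.48), a call held in 1 of 6 fits without 1 library (adjusted p up to 0.139), and not by the test in input (log2 fold -0.24, adjusted p = 0.162). Sema3e, which binds Plxnd1 without a neuropilin, passed in neither fraction (log2 folds 0.22 and 0.16).

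Semaphorins of classes 4 to 7 are bound to the membrane. Of these 13, 3 rose in tumor in each fraction, and 5 fell in input and 4 in IP. Sema6a, a ligand of Plxna2 and Plxna4, stood at 36.7, 42.4 and 37.7 CPM in the input of controls, 94.5, 97.6 and 95.9 in that of tumor mice and 60.7, 46 and 37.6 in that of AZD mice. In IP it held 30.5, 37.1 and 34.1 CPM in controls, 78.6, 89.2 and 70.6 in tumor mice and 20.9, 16.6 and 18.5 in AZD mice. The groups did not overlap in either fraction between control and tumor or between tumor and AZD, and AZD IP was below control IP. Sema6a rose in tumor by a log2 fold of 1.29 ± 0.16 in input (adjusted p = 0.000134) and fell with AZD, with log2 folds of -0.96 ± 0.16 in input (adjusted p = 0.0028) and -2.13 ± 0.13 in IP (adjusted p = 5.37e-07). Sema5b stood at 17.7, 17 and 18.1 CPM in the input of controls and 16.5, 14 and 13.8 in their IP. For Sema5b, tumor libraries held 54.9, 33.8 and 38.5 CPM in input and 39.4, 30.7 and 28.3 in IP, and AZD libraries 27.4, 19.8 and 19.8 in input and 8.84, 10.5 and 11 in IP. It rose in tumor without overlap, by 1.26 ± 0.20 in input and 1.17 ± 0.14 in IP (adjusted p = 0.000673 and 0.000108). Sema4c, the third that rose, had log2 folds of 1.03 and 0.93.

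Sema4f, a transmembrane semaphorin found at synapses, fell in tumor (log2 folds -0.83 in input and -0.93 in IP) and was higher with AZD in IP (log2 fold 0.98 ± 0.22, adjusted p = 0.00289). Sema6b fell as well (log2 folds -0.56 and -0.58) and was higher with AZD in IP (log2 fold 0.51). Sema4d, the ligand of Plxnb1, fell too (log2 folds -0.52 and -0.50), and each call held in 1 of 6 fits that left out 1 library (adjusted p up to 0.164 in input and 0.0822 in IP). Sema5a, a ligand of Plxnb3, had means of 98.6 ± 7.12 CPM in control input, 134 ± 41 in tumor input and 93.9 ± 10.8 in AZD input. In IP the means were 106 ± 7.82, 131 ± 29.5 and 71.2 ± 8.23 CPM. Its tumor change missed the threshold (adjusted p = 0.0707 in input and 0.0866 in IP), and AZD IP was lower than tumor IP (log2 fold -0.91 ± 0.15, adjusted p = 0.00043). The remaining class 4 to 7 members had log2 folds in tumor input from -0.63 (Sema6c) to 0.26 (Sema6d).

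Plexins are the semaphorin receptors. Of the 4 class A plexins, which pair with neuropilins, Plxna1, Plxna2 and Plxna4 fell in tumor in both fractions and were higher with AZD in IP. Plxna3 rose by a log2 fold of 0.34 ± 0.12 in input and 0.46 ± 0.15 in IP, calls that held in 2 of 6 and 1 of 6 fits that left out 1 library (adjusted p up to 0.123 and 0.0893). Plxna4 stood at 214, 215 and 213 CPM in the input of controls and 259.8, 248 and 232 in their IP. For Plxna4, tumor libraries held 70.9, 132 and 117 CPM in input and 132, 171 and 136 in IP, and AZD libraries 108, 105 and 106 in input and 284, 227 and 221 in IP. All tumor libraries lay below the control libraries of their fraction, and AZD IP lay above tumor IP while AZD input stayed in the range of tumor input. The log2 folds were -1.02 ± 0.18 and -0.73 ± 0.13 in tumor (adjusted p = 0.0015 and 0.00106) and 0.71 ± 0.13 with AZD in IP (adjusted p = 0.000714). Plxna2 had means of 299.8 ± 8.19, 165 ± 49.2 and 169.6 ± 31.6 CPM in control, tumor and AZD input, and 294 ± 15, 178 ± 29.5 and 269 ± 46.5 in IP.

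All 3 class B plexins, receptors for class 4 and 5 semaphorins, were lower in AZD IP than in AZD input, with a median log2 fold of -2.41; that of class A was 0.74. In tumor 2 of 3 rose in each fraction and none fell. Plxnb3, described in oligodendrocytes, stood at 28.6, 27.7 and 24.8 CPM in the input of controls and 12.2, 16.1 and 9.78 in their IP. For Plxnb3, tumor libraries held 99.1, 94.9 and 116 CPM in input and 51.9, 46.7 and 57.9 in IP, and AZD libraries 35.9, 83.8 and 57.5 in input and 3.19, 8.04 and 9.81 in IP. Within each condition every IP library lay below every input library, and tumor exceeded control in both fractions. The log2 fold in tumor was 1.92 ± 0.24 in input (adjusted p = 0.000167) and 2.07 ± 0.29 in IP (adjusted p = 0.00027), and AZD IP was below tumor IP (log2 fold -2.86 ± 0.30, adjusted p = 2.27e-05). Plxnb2 rose by a log2 fold of 0.98 and 0.95. Plxnb1, the receptor of Sema4d, stood at 97.4, 98.5 and 84.9 CPM in the input of controls, 97.7, 130.3 and 129 in that of tumor mice and 92.3, 109.6 and 97.3 in that of AZD mice. In IP it held 66.2, 83.4 and 68.9 CPM in controls, 61.9, 102 and 102 in tumor mice and 14.7, 15.4 and 24.9 in AZD mice. Tumor and control overlapped in both fractions (adjusted p = 0.0533 in input and 0.266 in IP), and AZD IP lay below all other Plxnb1 values (log2 fold from tumor IP -2.29 ± 0.24, adjusted p = 1.83e-05).

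Neuropilins are the co-receptors of class 3 semaphorins. Nrp2 stood at 56.7, 61.7 and 57.6 CPM in the input of controls and 71, 74 and 70.5 in their IP. For Nrp2, tumor libraries held 29, 31.9 and 39.1 CPM in input and 39.8, 47.1 and 46.4 in IP, and AZD libraries 34.5, 27.8 and 33.7 in input and 51.8, 45.5 and 47.1 in IP. It fell in tumor without overlap in both fractions (log2 folds -0.83 ± 0.13 in input and -0.66 ± 0.090 in IP, adjusted p = 0.000731 and 0.000223) and was not called between AZD and tumor (log2 folds -0.022 and 0.085). Nrp1 was called in none of the 9 comparisons; the block called it between IP and input in control (log2 fold 0.20 ± 0.069, adjusted p = 0.0322). Its means ran from 43 CPM in AZD input to 65.9 in control IP. Plxnd1 fell in tumor (log2 folds -0.58 and -0.48), and Plxnc1, the receptor of Sema7a, did not pass (log2 folds -0.30 and -0.26, adjusted p = 0.0518 and 0.0505).

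**Figure D3:**
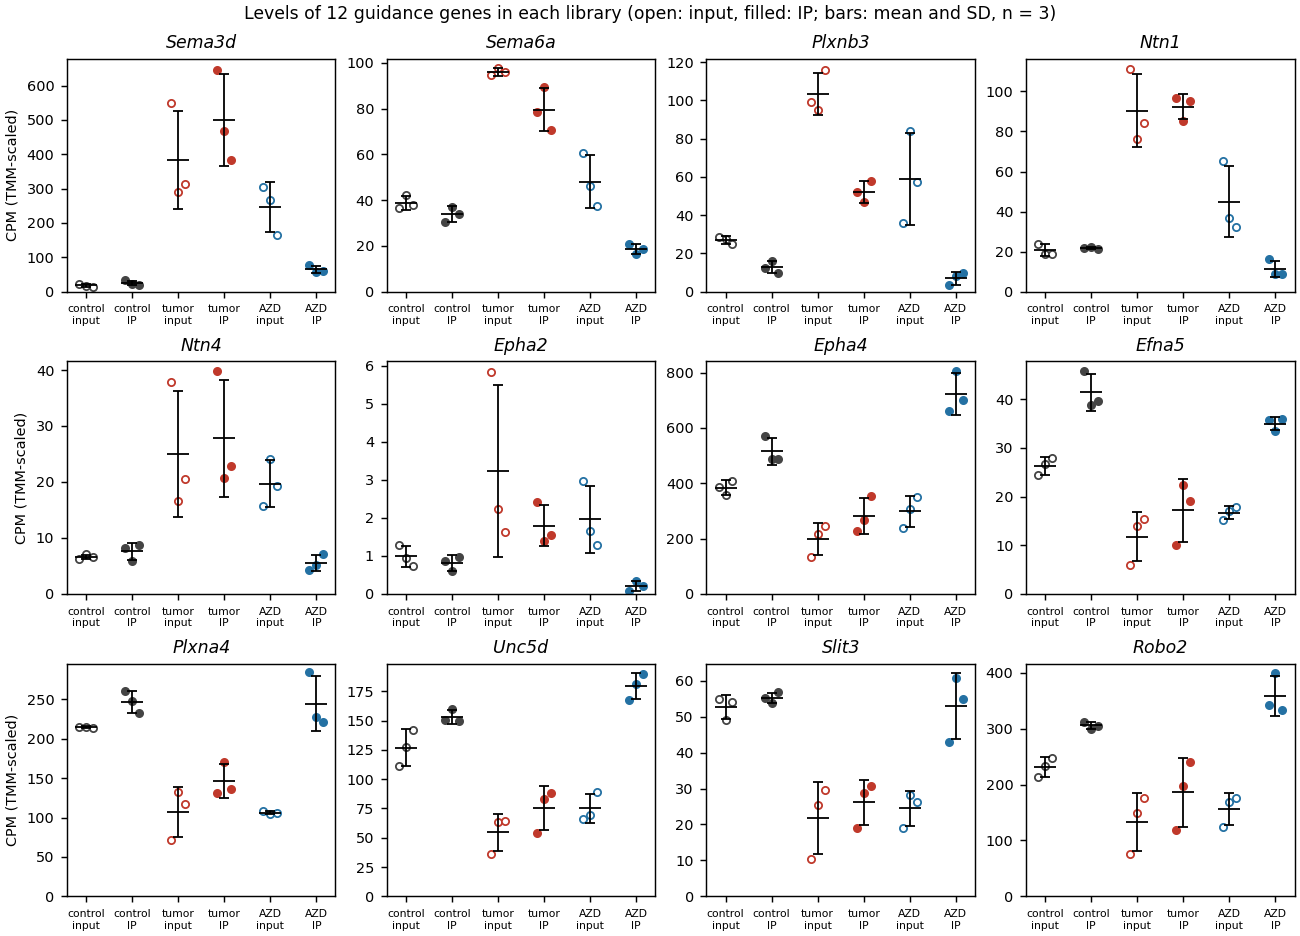
Level (CPM after TMM scaling, y axis from 0) of 12 guidance genes in each library, by group (x axis; open circles input, filled circles IP), with bars for the mean and 1 SD of 3 libraries. The 6 genes from Sema3d to Epha2 have their highest means in tumor and lie lower in AZD IP than in AZD input. The 6 from Epha4 to Robo2 are low in tumor input and lie higher in AZD IP than in AZD input. The highest mean is in AZD IP for Epha4, Unc5d and Robo2, and in control IP for Efna5, Plxna4 and Slit3.

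Ephrins are the surface-bound ligands of Eph receptors; class A ephrins are anchored by a lipid and class B ephrins span the membrane. In tumor input 1 of 7 tested rose and 3 fell, and in tumor IP 2 rose and 4 fell. Efna5, a ligand in topographic maps, stood at 24.4, 26.6 and 28 CPM in the input of controls and 45.7, 38.8 and 39.5 in their IP. For Efna5, tumor libraries held 5.99, 14 and 15.3 CPM in input and 9.99, 22.4 and 19.1 in IP, and AZD libraries 15.2, 17 and 17.8 in input and 35.6, 33.4 and 35.8 in IP. Tumor libraries lay below control libraries in both fractions, and AZD IP above both AZD input and tumor IP. The log2 fold in tumor was -1.18 ± 0.27 in input (adjusted p = 0.00499) and -1.24 ± 0.22 in IP (adjusted p = 0.00115), and AZD IP exceeded tumor IP by a log2 fold of 0.99 ± 0.22 (adjusted p = 0.00275). Tumor replicate 1 held the lowest Efna5 value of its fraction in input and IP.

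Efnb3, a transmembrane ephrin, fell in tumor and was lower still with AZD in IP. It stood at 77.6, 90.9 and 74.5 CPM in the input of controls, 38.7, 46.4 and 46.2 in that of tumor mice and 42.6, 47.7 and 45 in that of AZD mice. In IP Efnb3 held 76.5, 89.1 and 86.1 CPM in controls, 39.7, 49.8 and 46.6 in tumor mice and 35.2, 35.8 and 38.3 in AZD mice. Its log2 folds were -0.90 ± 0.11 and -0.86 ± 0.10 in tumor (adjusted p = 0.000167 and 8.19e-05) and -0.34 ± 0.10 for AZD against tumor in IP (adjusted p = 0.0141). Efnb2, a ligand of Ephb4, had means of 59.3 ± 9.93 CPM in control input and 37.6 ± 18.2 in tumor input (adjusted p = 0.0913). In IP it fell from 85.5 ± 4.74 to 53.4 ± 15.6 CPM (log2 fold -0.65 ± 0.19, adjusted p = 0.0186), a call held in 5 of 6 fits that left out 1 library. Efna3 fell in both fractions (log2 folds -0.62 in input and -0.36 in IP) and was higher with AZD in IP (log2 fold 0.84). Its tumor call in IP held in 2 of 6 fits without 1 library (adjusted p up to 0.111) and was lost with plain totals. Efna2 rose from 3.66 ± 0.397 to 8.81 ± 1.25 CPM in input, and Efnb1 passed in neither fraction.

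Eph receptors are the receptor tyrosine kinases for ephrins. Of the 9 class A receptors, 7 were called lower in tumor in both fractions (Epha3 to Epha8 and Epha10), and 6 of these were higher with AZD in IP, both against tumor IP and against AZD input. Epha8 was the exception. Over all genes lower in tumor input, 55.9% were higher in AZD IP than in AZD input, and 66.9% of those lower in tumor IP. The comparison with tumor IP uses the same tumor libraries as the tumor call in IP. For Epha3 the tumor calls held in 3 of 6 fits in input and 2 of 6 in IP when 1 library was left out (adjusted p up to 0.11 and 0.133), and both were lost with plain totals. For Epha10 the call against AZD input held in 3 of 6. Their log2 folds in tumor input ran from -1.53 (Epha8) to -0.55 (Epha3). Epha4, which binds ephrins of both classes, stood at 387, 357 and 409 CPM in the input of controls and 571, 488 and 487 in their IP. For Epha4, tumor libraries held 135, 216 and 247 CPM in input and 228, 267 and 355 in IP, and AZD libraries 239.5, 308 and 349.7 in input and 661, 807 and 701 in IP. Tumor lay below control in both fractions and AZD IP above all other groups, while AZD input overlapped tumor input. The log2 folds were -0.96 ± 0.20 and -0.84 ± 0.16 in tumor (adjusted p = 0.00344 and 0.00159), 1.32 ± 0.16 for AZD against tumor in IP (adjusted p = 5.03e-05) and 0.62 ± 0.20 in input (adjusted p = 0.0598). Epha5 had means of 139.6 ± 8.45, 90.1 ± 22.6 and 101 ± 5.6 CPM in control, tumor and AZD input, and 181 ± 14.8, 119 ± 22.8 and 193 ± 31 in IP.

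Epha10, a receptor without kinase activity, held 38.5, 35.8 and 37.1 CPM in control input and 11.4, 15.1 and 18.6 in tumor input, and at 33.8, 36.9 and 35.8 in the IP of controls and 13.5, 15.3 and 19.3 in that of tumor mice. With AZD it held 15.4, 29.7 and 26.7 CPM in input and 26.5, 49.2 and 51.6 in IP. In both AZD fractions replicate 1 was the lowest of the 3, and AZD IP lay above tumor IP (log2 fold 1.38 ± 0.22, adjusted p = 0.000363). The difference between AZD IP and AZD input (log2 fold 0.87 ± 0.29, adjusted p = 0.0289) held in 3 of 6 fits that left out 1 library, with an adjusted p of up to 0.0951. Epha8 held 10.8, 10.9 and 12 CPM in control input and 1.97, 3.98 and 5.94 in tumor input, and at 4.9, 7.73 and 5.91 in the IP of controls and 1.74, 2.27 and 3.44 in that of tumor mice, again without overlap (log2 folds -1.53 ± 0.31 and -1.26 ± 0.29, adjusted p = 0.00282 and 0.00463). With AZD it held 3.15, 3.96 and 3.67 CPM in input and 1.55, 2.58 and 2.06 in IP, and AZD IP was not called against tumor IP (log2 fold -0.28, adjusted p = 0.44).

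Epha2, known from proliferating progenitors and gliomas, went the other way at a low level. It stood at 1.28, 0.944 and 0.737 CPM in the input of controls, 5.83, 2.24 and 1.64 in that of tumor mice and 2.96, 1.66 and 1.28 in that of AZD mice. In IP Epha2 held 0.871, 0.594 and 0.978 CPM in controls, 2.41, 1.41 and 1.56 in tumor mice and 0.0818, 0.332 and 0.209 in AZD mice. The AZD IP values rest on 1, 9 and 6 counts and the AZD input values on 65, 26 and 23. Tumor lay above control in both fractions (log2 folds 1.71 ± 0.52 and 1.14 ± 0.38, adjusted p = 0.02 and 0.0291), and replicate 1 was the highest tumor library of each. The tumor calls held in 3 of 6 fits in input and 2 of 6 in IP that left out 1 library (adjusted p up to 0.0872 and 0.103). AZD IP lay below AZD input (log2 fold -3.06 ± 0.51, adjusted p = 0.00106) and below tumor IP (log2 fold -2.96 ± 0.45, adjusted p = 0.000244), calls held in 6 of 6 and 6 of 6 such fits. Epha1 was singled out after its values were seen: its input libraries held 5, 2 and 3 counts in controls, 2, 6 and 3 in tumor mice and 34, 21 and 30 in AZD mice. Its IP libraries held 19, 30 and 20 counts in controls, 16, 22 and 44 in tumor mice and 3, 16 and 15 in AZD mice. In CPM, each control or tumor input library lay below each control IP, tumor IP and AZD input library, and the span of Epha1 overlaps Zyx.

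Of the 5 class B receptors, Ephb2 and Ephb3 rose in tumor and Ephb4 fell, in both fractions, and Ephb1 was not called in either (log2 folds -0.42 and -0.27). Ephb4, a receptor of venous endothelium, stood at 7.08, 8.5 and 8.91 CPM in the input of controls, 4.48, 3.81 and 4.47 in that of tumor mice and 5.74, 4.98 and 5.73 in that of AZD mice. In IP it held 4.36, 6.13 and 5.69 CPM in controls, 3.31, 3.36 and 3.6 in tumor mice and 0.982, 0.664 and 0.663 in AZD mice, so that AZD IP lay below every other group. The log2 fold in tumor was -0.95 ± 0.18 in input (adjusted p = 0.00183) and -0.62 ± 0.21 in IP (adjusted p = 0.0287), the latter held in 1 of 6 fits that left out 1 library (adjusted p up to 0.107). AZD IP was below AZD input (log2 fold -2.85 ± 0.26, adjusted p = 7.34e-05). Ephb2 rose by a log2 fold of 0.51 and 0.57 and was lower with AZD (log2 folds -0.76 in input and -0.72 in IP), with 0.048 between AZD IP and AZD input (adjusted p = 0.857). Ephb6, which lacks kinase activity, was singled out after its values were seen. In AZD mice it held 69.1, 30.2 and 31.6 CPM in input and 139, 9.74 and 12.7 in IP, with replicate 1 far above the others in both, and it was not called in any comparison with AZD.

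Netrins are secreted cues, and 2 of 4 rose in tumor input and 3 of 4 in tumor IP. Netrin-1 (Ntn1) stood at 24, 18.7 and 18.9 CPM in the input of controls and 22, 22.3 and 21.5 in their IP. For Ntn1, tumor libraries held 111, 76.4 and 84 CPM in input and 96.7, 85.3 and 95.4 in IP, and AZD libraries 65.1, 37 and 32.5 in input and 16, 8.97 and 9.01 in IP. Every tumor library exceeded every control and AZD library of its fraction, and AZD IP lay below control IP. Ntn1 rose by a log2 fold of 2.13 ± 0.26 in input (adjusted p = 0.000134) and 2.10 ± 0.18 in IP (adjusted p = 8.29e-06), and AZD IP was below tumor IP (log2 fold -3.09 ± 0.19, adjusted p = 7.17e-07). In input the log2 fold with AZD was -0.98 ± 0.25 (adjusted p = 0.0231), held in 4 of 6 fits that left out 1 library. Netrin-4 (Ntn4), a basement membrane protein, stood at 6.25, 7.05 and 6.51 CPM in the input of controls, 37.9, 16.6 and 20.5 in that of tumor mice and 15.7, 24.1 and 19.4 in that of AZD mice. In IP Ntn4 held 8.23, 5.85 and 8.7 CPM in controls, 39.7, 20.8 and 22.9 in tumor mice and 4.26, 5.09 and 7.09 in AZD mice. Tumor exceeded control without overlap (log2 folds 1.91 ± 0.29 and 1.89 ± 0.27, adjusted p = 0.000596 and 0.000308), with replicate 1 well above the other tumor libraries. AZD overlapped tumor in input (adjusted p = 0.445) and lay below it in IP (log2 fold -2.34 ± 0.28, adjusted p = 4.94e-05). Ntn5 fell in input (log2 fold -1.45 ± 0.35, adjusted p = 0.00695), from 2.49, 2.11 and 2.7 to 0.463, 1.16 and 1.09 CPM, and not by the test in IP (log2 fold -0.46 ± 0.44, adjusted p = 0.408).

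Of the 5 netrin receptors tested, 1 rose and 3 fell in tumor in each fraction. Dcc, the receptor for attraction, was not called in tumor in either fraction (log2 folds -0.25 ± 0.17 and -0.33 ± 0.16, adjusted p = 0.262 and 0.106). Unc5 receptors mediate repulsion, and Unc5a, Unc5b and Unc5d fell in tumor in both fractions while Unc5c rose. Unc5d stood at 111, 127 and 142 CPM in the input of controls and 150.2, 160.2 and 149 in their IP. For Unc5d, tumor libraries held 36.4, 63.1 and 64.7 CPM in input and 53.8, 83.1 and 88.6 in IP, and AZD libraries 66, 69.5 and 89.4 in input and 168, 181 and 189.9 in IP. Its fall in tumor showed no overlap (log2 folds -1.23 ± 0.20 and -0.999 ± 0.16, adjusted p = 0.00101 and 0.000518), and AZD IP lay above all other groups (log2 fold 1.23 ± 0.16 from tumor IP, adjusted p = 7.59e-05). Unc5b, also a vascular receptor, stood at 29.7, 29.4 and 27.5 CPM in the input of controls, 11.9, 16.4 and 16.9 in that of tumor mice and 11.1, 12.2 and 13.9 in that of AZD mice. In IP Unc5b held 23.3, 29.7 and 27.2 CPM in controls, 9.09, 15.6 and 15.1 in tumor mice and 2.21, 1.88 and 3.11 in AZD mice. It fell in tumor (log2 folds -0.96 ± 0.15 and -0.98 ± 0.21, adjusted p = 0.000809 and 0.0035) and fell again with AZD in IP (log2 fold -2.48 ± 0.24, adjusted p = 1.38e-05), the direction opposite to that of Unc5a (log2 fold 0.78) and Unc5d.

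Unc5c rose in tumor without overlap and was lower with AZD in both fractions. It stood at 86.6, 91.8 and 104 CPM in the input of controls, 135, 142 and 158 in that of tumor mice and 99.3, 86.3 and 80.3 in that of AZD mice. In IP Unc5c held 101, 107 and 95 CPM in controls, 126, 149.7 and 152 in tumor mice and 96.9, 84.1 and 84.5 in AZD mice. The log2 fold in tumor was 0.61 ± 0.11 and 0.53 ± 0.10 (adjusted p = 0.00201 and 0.00169), and the log2 fold with AZD was -0.68 ± 0.12 in input and -0.72 ± 0.10 in IP (adjusted p = 0.00364 and 0.000142). AZD IP and AZD input overlapped, with a log2 fold of 0.018 ± 0.11 (adjusted p = 0.897).

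Slits are secreted repellents, and all 3 were called lower in tumor in both fractions and higher with AZD in IP, against tumor IP and against AZD input, with the calls of Slit2 the least stable. Over all genes lower in tumor IP, 66.9% were higher in AZD IP than in AZD input, and the comparison with tumor IP reuses the tumor libraries. Slit3 stood at 54.9, 48.9 and 54.2 CPM in the input of controls and 55.2, 53.9 and 56.7 in their IP. For Slit3, tumor libraries held 10.3, 25.3 and 29.7 CPM in input and 19.1, 28.8 and 30.8 in IP, and AZD libraries 18.9, 28.2 and 26.4 in input and 42.9, 60.9 and 55 in IP. The groups did not overlap between control and tumor in either fraction or between tumor and AZD in IP (log2 folds -1.30 ± 0.30 and -1.04 ± 0.17 in tumor, 0.99 ± 0.17 with AZD in IP, adjusted p = 0.00542, 0.000739 and 0.000609). Slit1 stood at 67.8, 68.1 and 56.8 CPM in the input of controls, 28.4, 33.1 and 26.9 in that of tumor mice and 44.7, 44.3 and 50.6 in that of AZD mice. In IP Slit1 held 68.4, 60.1 and 54.6 CPM in controls, 38.7, 34.3 and 29.9 in tumor mice and 80.4, 81.2 and 74.1 in AZD mice. It was also higher in AZD input than in tumor input (log2 fold 0.69 ± 0.12, adjusted p = 0.00472), where Slit2 and Slit3 were not called (log2 folds -0.16 and 0.20). Slit2 had a log2 fold of -0.52 ± 0.16 in tumor input, called in 3 of 6 fits that left out 1 library (adjusted p up to 0.0769), and -0.52 ± 0.13 in tumor IP, called in 6 of 6. Its log2 fold with AZD in IP was 0.34 ± 0.13 (adjusted p = 0.049), a call held in 1 of 6 such fits (adjusted p up to 0.145) and lost with plain library totals, in the single fit of all libraries and with a minimum of 5 CPM. Slit2 and Slit3 host the microRNA genes Mir218-1 and Mir218-2 in their spans.

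Robos are the slit receptors of neurons, except Robo4, which is known from endothelium. Robo2 stood at 213, 233 and 248 CPM in the input of controls and 312, 299 and 306 in their IP. For Robo2, tumor libraries held 75.5, 149 and 176 CPM in input and 119.6, 198 and 240.3 in IP, and AZD libraries 124, 169 and 176 in input and 342, 399.8 and 334 in IP. It fell in tumor (log2 folds -0.81 ± 0.25 and -0.69 ± 0.20, adjusted p = 0.0205 and 0.0159) and was higher with AZD in IP (log2 fold 0.92 ± 0.20, adjusted p = 0.00249), without overlap. Its call in tumor input held in 4 of 6 fits that left out 1 library (adjusted p up to 0.0653). Robo1 fell in tumor as well (log2 folds -0.33 ± 0.092 and -0.35 ± 0.079) but was lower, not higher, with AZD in IP (log2 fold -0.29 ± 0.080, adjusted p = 0.00945). Its means were 93.5 ± 2.73, 74.9 ± 1.4 and 69.9 ± 5.8 CPM in control, tumor and AZD input, and 95.3 ± 5.93, 73.6 ± 1.67 and 61.3 ± 1.93 in IP.

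Robo4 stood at 9.76, 8.66 and 9.46 CPM in the input of controls, 10.5, 7.87 and 6.27 in that of tumor mice and 11.9, 8.55 and 9.13 in that of AZD mice. In IP Robo4 held 3.61, 4.02 and 5.11 CPM in controls, 5.33, 4.4 and 3.38 in tumor mice and 1.64, 0.849 and 1.57 in AZD mice. Tumor and control overlapped in both fractions (adjusted p = 0.489 and 0.877). IP lay below input in control (log2 fold -1.14 ± 0.16, adjusted p = 0.000197) and with AZD (log2 fold -2.88 ± 0.29, adjusted p = 0.000107), and AZD IP lay below tumor IP (log2 fold -1.74 ± 0.29, adjusted p = 0.000501). In tumor the same log2 fold was -0.91 ± 0.27 (adjusted p = 0.104), and with the block -0.90 ± 0.14 (adjusted p = 2.86e-05). Robo3, a divergent Robo of commissural axons, was lower in tumor input (log2 fold -0.78 ± 0.28, adjusted p = 0.0389), a call held in 2 of 6 fits that left out 1 library (adjusted p up to 0.181) and lost with plain totals, and not by the test in tumor IP (log2 fold -0.20 ± 0.31, adjusted p = 0.625).

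The tumor change was set beside the gap between IP and input in AZD brain. The groups compared share no libraries. The fits of tumor against control also held the AZD libraries of that fraction, so the 2 sets of calls are not fully independent. Of the 14 guidance genes higher in tumor input, 10 were lower in AZD IP than in AZD input (71.4%) and none was higher. Those were Sema3d, Ntn1, Ntn4, Plxnb2, Plxnb3, Plxna3, Sema4c, Sema5b, Sema6a and Epha2, and the other 4 were Unc5c, Ephb2, Ephb3 and Efna2. Of the 34 lower in tumor input, 21 were higher in AZD IP (61.8%) and 7 lower (20.6%). Over all genes higher in tumor input, 60.5% were lower in AZD IP and 5.26% higher. Over all genes lower in tumor input, 55.9% were higher and 15.7% lower. With tumor IP in place of tumor input, 10 of 16 that rose were lower in AZD IP (62.5%, all genes 62.5%) and 23 of 32 that fell were higher (71.9%, all genes 66.9%). The shares of guidance genes were thus close to those of all genes with the same tumor call.

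The 7 genes lower in tumor input and lower again in AZD IP were Sema3g, Ephb4, Unc5b, Robo3, Epha8, Sema6c and Efnb3. In 3 of them, Sema3g, Ephb4 and Unc5b, the fold of AZD IP over AZD input was below -2 on the log2 scale (log2 folds -3.01, -2.85 and -2.33), and in Efnb3 the log2 fold was -0.28. When 1 library was left out, the lower call in AZD IP against AZD input held in 2 of 6 fits for Efnb3, 2 of 6 for Epha8 and 4 of 6 for Sema6c (adjusted p up to 0.12, 0.109 and 0.078), and DESeq2 did not call Efnb3 or Epha8. The tumor input call of Robo3 held in 2 of 6. Robo4, Plxnb1 and Sema3b had log2 folds there of -2.88, -2.41 and -1.92 with no called tumor change in input. The endothelial and pericyte markers were lower in AZD IP than in AZD input in 10 of 10 (median -2.61), with sums of 263 to 349 CPM in AZD input and 37.4 to 59.2 in AZD IP. Their part in the values of Sema3g, Ephb4, Unc5b and Robo4 was not tested.

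**Figure D4:**
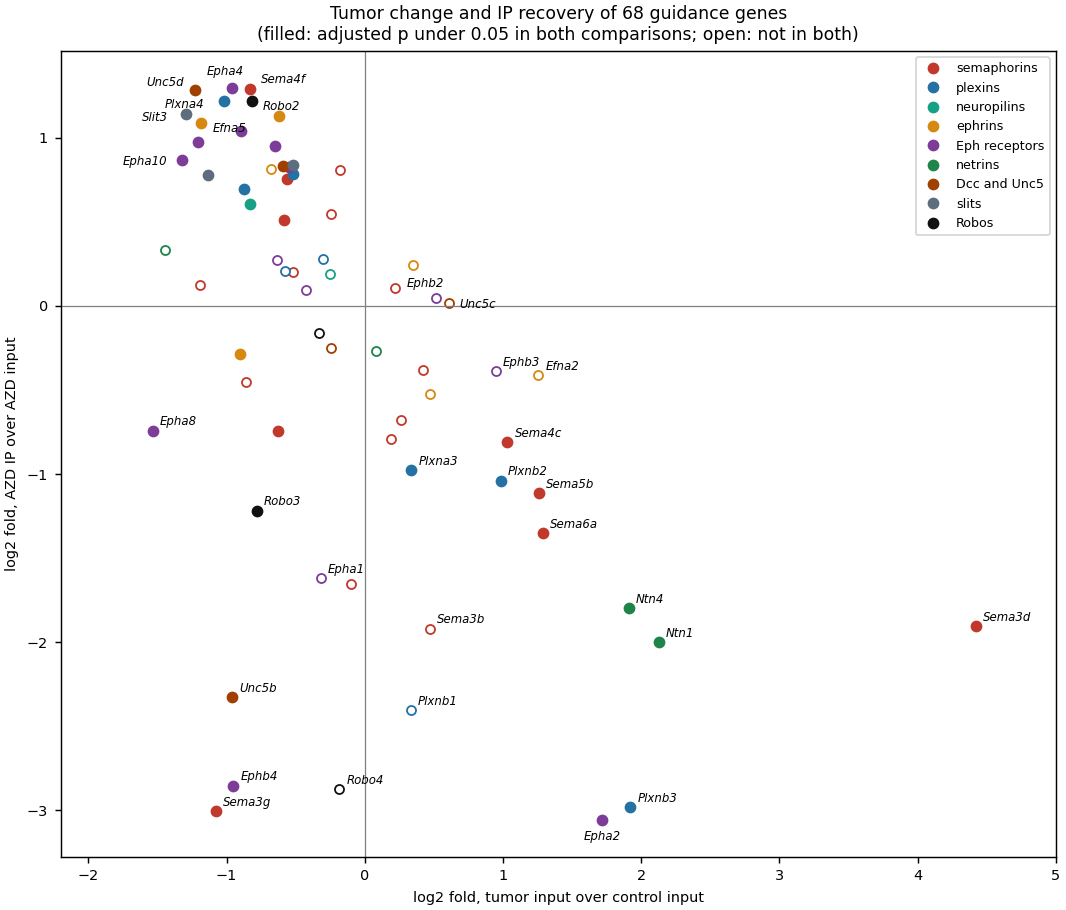
Log2 fold of tumor input over control input (x axis) against log2 fold of AZD IP over AZD input (y axis) for 68 guidance genes, colored by family, filled where both comparisons passed an adjusted p of 0.05. Of the genes that passed both, 21 lie at upper left (lower in tumor, higher in AZD IP) and 10 at lower right, with Sema3g, Ephb4, Unc5b and Epha8 at lower left.

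Other genes of the guidance pathway were read from lists. Of 36 further cues and co-receptors, 10 rose and 12 fell in tumor input, and 10 and 12 in tumor IP (over all genes tested, 24.5% and 23.6% in input and 26.1% and 20.9% in IP, list medians -0.24 and -0.25). Cxcr4, the receptor of the chemokine Cxcl12, rose by a log2 fold of 3.04 in input (adjusted p = 1.45e-05), and Bmp7, a BMP ligand, by a log2 fold of 2.60 in IP (adjusted p = 5.03e-06). Bmp7 was lower with AZD in IP (log2 fold -3.39, adjusted p = 9.23e-07). Between AZD IP and AZD input 13 of 35 were higher and 13 lower. Of 58 cytoplasmic effectors of guidance receptors, 16 rose and 21 fell in tumor input, 18 rose and 18 fell in tumor IP, and 25 were higher and 16 lower in AZD IP than in AZD input, where 29% and 32.5% of all genes tested were higher and lower. These counts are given with no test of the lists. Dpysl3, a collapsin response mediator protein downstream of semaphorins, rose by a log2 fold of 2.43 in input and 2.34 in IP (adjusted p = 8.06e-06 and 7e-08). Mical1, an actin oxidase that acts with class A plexins, rose by a log2 fold of 3.10 in IP (adjusted p = 9.78e-08) and was lower with AZD there (log2 fold -3.51, adjusted p = 9.05e-08). Crmp1, a relative of Dpysl3, was higher in AZD IP than in AZD input (log2 fold 1.07, adjusted p = 5.54e-05).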

How the data were processed

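RNA was measured in 18 libraries of input and IP from control, tumor and AZD8055-treated tumor mice (RNeasy and a directional NEBNext kit, per the labels' protocols). The authors deposited raw read counts per gene symbol, and the submitters' notes list STAR, DESeq2 and the build mm10 with no role. Versions, how reads were counted and whether strand was used were not given in the sources used here, so reads of overlapping genes (14 of the 69 spans overlap another symbol) may be shared.

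Counts were tested with edgeR 4.0.16 in R 4.3.3: filterByExpr, TMM scaling, a quasi-likelihood F test, and Benjamini-Hochberg adjustment over all genes tested, with a threshold of 0.05. Comparisons between conditions were fitted on all libraries of a fraction, AZD included, and IP against input on all libraries of a condition. Contrasts of IP minus input compared the 12 libraries of 2 conditions in a fit of all 18 libraries. The standard error is the size of the log2 fold divided by the square root of F. Alternatives were DESeq2 1.42.0, other scalings and filters, a replicate block, a single fit of all libraries and leaving out each library. The procedure was tested on simulated data. The precision of low genes such as Epha2 is limited by their few counts.

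Library totals lay between 13561511 and 34178417 counts. Over 14205 genes with a mean of at least 1 CPM, the deviations of IP and input libraries of the same number from their group means had correlations between 0.301 and 0.34 for controls, between 0.646 and 0.868 for tumor mice, and between 0.286 and 0.582 for AZD mice. Numbers were therefore taken to pair IP with input, from the data and not from the labels. The reported tests did not use these pairs, and only the replicate block did.

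Genes given by library were the 10 largest called folds (mean of at least 1 CPM) in tumor against control in either fraction and in AZD IP against input, and up to 2 further genes per family with the highest mean. From the other pathway lists, up to 3 genes with the smallest adjusted p were named per comparison. The guidance genes and all lists were chosen with earlier results of these data known. Promoters are RefSeq windows on GRCm38.p6. Figures were drawn with matplotlib 3.10.9.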

Additional observations from a re-analysis of the deposited data

Results flagged for a closer look

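The difference between IP and input was compared between AZD and tumor brain by an interaction term, and 27 guidance genes passed it in edgeR's quasi-likelihood test. Of these, 10 went upward and 17 downward (14.7% and 25% of the guidance genes tested), against 12.3% and 20.8% of all 16016 genes. Among the genes given by library, the IP stood higher relative to input with AZD than in tumor for 4, with log2 differences of 0.80 for Unc5d, 0.77 for Epha4, 0.75 for Plxna4 and 0.54 for Slit1. It stood lower for 13, with -2.90 for Sema3g, -2.57 for Ephb4, -2.30 for Sema3d, -2.21 for Epha2, -2.17 for Unc5b, -2.05 for Ntn1, -2.02 for Plxnb3, -2.01 for Plxnb1, -1.98 for Robo4, -1.97 for Ntn4, -1.77 for Sema3b, -1.10 for Sema6a and -0.76 for Sema5b. The genes given by library were chosen in part for the largest folds of AZD IP over AZD input. All 10 chosen that way were lower in AZD IP, and this contrast uses the same AZD libraries. The split of 4 and 13 and the sizes therefore follow in part from that choice. Epha1, singled out after its values were seen and resting on few counts, had the lowest value of all guidance genes, -4.41 (adjusted p = 9.28e-05, called in 12 of 12 fits that left out 1 library). Of the 13, Sema3d, Ntn1, Ntn4, Plxnb3, Sema6a, Sema5b and Epha2 had risen in tumor in both fractions. Of the other guidance genes that rose in both, Plxnb2 also passed downward. Unc5c, Ephb2, Ephb3, Efna2, Plxna3 and Sema4c did not pass. In fits that left out 1 library, the call held in 7 of 12 for Plxna4, 6 of 12 for Sema5b, 7 of 12 for Epha2, 4 of 12 for Epha4, 5 of 12 for Unc5d and 9 of 12 for Slit1, and in every such fit for the others. The AZD fractions lie in 1 set of library names and the tumor fractions in 2, so the set cannot be told apart from this difference. Of 10 markers each of astrocytes, oligodendrocytes, microglia and endothelium, 10, 10, 9 and 10 were lower in AZD IP than in AZD input (median log2 folds -2.22, -2.13, -2.48 and -2.61). In tumor, edgeR without the replicate block called 0, 0, 0 and 0 of 10 (medians -0.14, -0.067, -0.16 and -0.45), with 1, 0, 0 and 7 at an unadjusted p under 0.05. Marker calls were not counted with the block, which raised the guidance genes called there from 3 to 33. The part of these markers in the result was not tested.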

How the results depend on the processing

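The counts of called guidance genes stayed within 1.5 times the reported count under every alternative for tumor against control (both fractions), AZD against tumor in IP, AZD IP against AZD input and the contrast of tumor and control. Tumor IP against input moved most: from 3 calls to 5 in DESeq2, 6 in a single fit of all libraries and 33 with the replicate block, with 1 to 3 when 1 library was left out. Control IP against input went from 31 to 10 (2 higher and 8 lower) in the single fit, AZD against tumor in input from 14 to 7 to 16 when 1 library was left out, and the contrast of AZD and tumor from 27 to 44 with the replicate block. AZD against tumor in input split 6 higher and 11 lower in DESeq2. With plain library totals the median over all genes shifted by -0.13 for AZD against tumor in IP and -0.18 in that contrast. Of the log2 folds of genes given by library, none changed sign where it was called. Against the reported calls, DESeq2 lost 2 and gained 9 of 297, RLE scaling 0 and 1, plain totals 12 and 9, no filter 2 and 3, and the replicate block 0 and 40. A minimum of 5 CPM lost 6 and gained 3 of 250, and the single fit 16 and 5. Between conditions the replicate numbers did not pair the libraries (correlations from -0.0983 to 0.365, with every library closest to its own number only between control and tumor IP), and a block there called 50 in tumor IP, 52 in tumor input, 53 for AZD against tumor in IP and 21 in input. For IP against input, where numbers pair, it called 36 in control and 52 with AZD. The cause of these moves was not tested. Depth limits Efna4, Epha1 and Epha2, which held few counts per library.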
